A study of Homo sapiens with 16 samples.

Results

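The genes described here encode the MCM helicase and the factors that license origins of DNA replication, measured as RNA in 2 human acute myeloid leukaemia lines. They are MCM2, MCM3, MCM4, MCM5, MCM6, MCM7, MCM10, CDC6, CDT1 and GMNN. They were taken by gene symbol, 10 of the 60603 genes in the count table, and all 10 passed the filter on low counts in each line. SKNO-1 cells are myeloblasts that express RUNX1-RUNX1T1, and U-937 cells resemble monocytes. The compounds were all-trans retinoic acid (ATRA), the ligand of the retinoic acid receptors, and Corin, a bifunctional inhibitor of the demethylase LSD1 and the histone deacetylases HDAC1 and HDAC2 within the CoREST complex. For each line the groups were DMSO, the solvent control, ATRA alone, Corin alone, and both agents together, with each agent at 0.1 µM for 24 h. Each of the 8 groups had 2 libraries, 16 in all. The labels name no engineered allele, and SKNO-1 alone was grown with GM-CSF, so line and medium cannot be told apart.

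Licensing is the loading of inactive MCM2 to MCM7 rings onto origins in G1. The origin recognition complex and CDC6 receive the rings in complex with CDT1, and geminin, the product of GMNN, binds CDT1 and blocks further loading once S phase has begun. In S phase the rings join CDC45 and the GINS complex to form the active helicase (CMG), a step that MCM10 completes. The genes of this system are known targets of E2F transcription factors and are active in proliferating cells, including leukaemia lines, and low in cells that have left the cycle.

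Total counts per library ran from 32.8 to 37.8 M in SKNO-1 and from 28.4 to 37.6 M in U-937. Identity genes matched the labels: RUNX1T1 had between 7228 and 10194 counts per SKNO-1 group and at most 1 count per U-937 group, and HOXA9 and HOXA10 had 0 counts in SKNO-1. Summed myeloid markers lay between 606 and 1137 TPM in SKNO-1 and between 156 and 204 TPM in U-937. Of these markers MPO ran from 506 to 1045 TPM in SKNO-1 and reached at most 0.15 TPM in U-937. CEBPA and PTPRC were higher in U-937, with CEBPA at 28.5 to 53.4 TPM against 2.72 to 6.91 TPM in SKNO-1. Summed T cell, erythroid and epithelial markers reached at most 0.16 TPM in any library, and summed B cell markers reached 2.53 TPM in U-937. The 2 SKNO-1 DMSO libraries stood apart from each other. The SD of their log2 difference over 9354 genes was 0.361, against 0.108 to 0.208 in the other 7 groups, and that difference went with GC content (Pearson r = 0.80 across 9338 genes, which are not independent replicates). The corresponding r was 0.58 for U-937 DMSO, 0.39 for U-937 with both agents, -0.42 for SKNO-1 with ATRA, and between -0.16 and 0.11 in the other 4 groups. Values without each of the SKNO-1 DMSO libraries are given beside the results that moved with them. The labels do not say that the libraries of a group came from separate cultures, so p-values measure the spread between these libraries, which may be technical.

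Promoter sequences of these genes are shown first, because the genes moved together in the data below and because they illustrate the E2F element. Of the 10 genes, 8 matched RefSeq promoter windows on GRCh38.p14, with 11 windows in all, each holding 300 bases with the transcription start at base 251. The letters searched were TTTCCCGC, TTTGGCGC, TTTCGCGC and TTTGCCGC on both strands. At least 1 of these words occurred in the windows of 7 of the 8 genes (MCM2, MCM3, MCM6, MCM7, CDC6, CDT1 and GMNN) and in 7 of the 11 windows, against 3.31% of all 35116 windows. The search found no match for MCM10. A match describes letters and does not show that a factor binds. In the stretches below, written 5′ to 3′ on the gene's strand from window base 91 to base 280, capitals mark the E2F words. MCM2 (chr3:127598251-127598440, plus strand) has overlapping matches on opposite strands just after the start. MCM6 (chr2:135876414-135876603, minus strand) has 2 such double elements, making 4 matches, and is the only one of the 35116 windows with that many. CDC6 (chr17:40287719-40287908, plus strand) and CDT1 (chr16:88803629-88803818, plus strand) have 1 match each. MCM10 (chr10:13161398-13161587, plus strand) is shown because it fell with the others and holds none of the words searched. Other words were not searched, such as tttggcgg, which stands unmarked in the MCM10, CDC6 and CDT1 stretches.
MCM2: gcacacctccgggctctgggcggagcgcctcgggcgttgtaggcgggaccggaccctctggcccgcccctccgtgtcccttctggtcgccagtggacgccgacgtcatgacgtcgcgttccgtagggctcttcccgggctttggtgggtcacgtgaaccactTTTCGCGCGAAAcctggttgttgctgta
MCM6: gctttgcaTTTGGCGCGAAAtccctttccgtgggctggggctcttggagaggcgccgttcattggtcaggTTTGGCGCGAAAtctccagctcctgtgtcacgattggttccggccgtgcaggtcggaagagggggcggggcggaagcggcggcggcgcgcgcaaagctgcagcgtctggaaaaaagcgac
CDC6: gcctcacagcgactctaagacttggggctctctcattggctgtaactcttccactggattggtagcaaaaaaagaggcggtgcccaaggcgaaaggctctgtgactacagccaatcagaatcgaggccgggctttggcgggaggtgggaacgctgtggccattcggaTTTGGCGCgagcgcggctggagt
CDT1: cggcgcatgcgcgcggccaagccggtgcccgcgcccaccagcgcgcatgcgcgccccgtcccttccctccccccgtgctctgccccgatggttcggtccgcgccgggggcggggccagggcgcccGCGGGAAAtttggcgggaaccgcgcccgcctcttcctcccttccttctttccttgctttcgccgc
MCM10: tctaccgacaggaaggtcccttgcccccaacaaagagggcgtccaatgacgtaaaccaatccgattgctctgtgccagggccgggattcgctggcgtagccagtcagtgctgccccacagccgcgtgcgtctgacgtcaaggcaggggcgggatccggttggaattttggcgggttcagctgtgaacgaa

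The CCAAT box, searched as CCAAT on both strands, occurred in 6 of the 8 genes (MCM3, MCM6, MCM7, MCM10, CDC6 and GMNN), against 39.7% of 27305 genes with a window. The cell cycle genes homology region, searched as TTTGAA or TTCGAA on both strands, occurred in MCM6 alone among the 8, against 19.5% of genes. None of the E2F words contains a CCAAT or homology-region word, and the members' windows were searched in the same way as all others.

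The genes lie on 9 chromosomes (GENCODE release 44 on GRCh38). The helicase subunits are MCM2 (ENSG00000073111.14, chr3:127598410-127622436), MCM3 (ENSG00000112118.19, chr6:52264014-52284881), MCM4 (ENSG00000104738.18, chr8:47960185-47978160), MCM5 (ENSG00000100297.16, chr22:35400134-35425431), MCM6 (ENSG00000076003.5, chr2:135839626-135876443) and MCM7 (ENSG00000166508.17, chr7:100092233-100101940). The loaders are CDC6 (ENSG00000094804.12, chr17:40287879-40304657) and CDT1 (ENSG00000167513.9, chr16:88803789-88809258), and their inhibitor is GMNN (ENSG00000112312.10, chr6:24774931-24786099). MCM10 (ENSG00000065328.16, chr10:13161558-13211110) acts at helicase activation. Reads were counted over whole genes. MCM2 shares 1113 of its 4715 exonic bases with an opposite-strand long non-coding gene, and MCM7 shares 392 of 4960 with the opposite-strand AP4M1 and hosts the microRNAs MIR25, MIR93 and MIR106B, so these 2 values could include reads of their neighbours if counting ignored strand. Estimated counts of MCM4 were not whole in 14 of 16 libraries, those of MCM7 in 5 and those of MCM10 in 2, as estimated counts are where a read matches more than 1 place, and the other 7 genes had whole counts throughout.

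On the scale per transcript length (TPM, as deposited), the helicase subunits were the more abundant transcripts and CDT1 the lowest in both lines. With DMSO, SKNO-1 had MCM4 at 194 ± 44.3 TPM (SD, n = 2), followed by MCM7, MCM3, MCM6, MCM5 and MCM2 down to 48.2 ± 0.283 TPM. CDC6 stood at 42.2 ± 9.72 TPM and GMNN at 41.2 ± 11.9 TPM, then came MCM10 at 25.5 ± 8.41 and CDT1 at 9.68 ± 2.02. In that order the libraries of MCM3 and MCM6, of MCM2 and CDC6, and of CDC6 and GMNN overlapped, and those of the other neighbours did not. With DMSO, U-937 had MCM4 at 326 ± 4.30 TPM, then MCM6 at 228 ± 15, MCM7 at 199 ± 0.933 and MCM3 at 173 ± 7.67. MCM2 and MCM5, at 67.0 ± 0.926 and 65.0 ± 3.44 TPM, overlapped each other, and GMNN, CDC6, MCM10 and CDT1 followed without overlap down to 5.06 ± 1.44 TPM for CDT1. A set of 6 small non-coding RNAs, picked after their values were seen, took between 37.4% and 55.8% of all TPM in a library, so TPM is used here for the order of genes within a group and for ratios within a library. The sections on treatment use CPM, counts per 1 M reads, on library sizes scaled by the trimmed mean of M-values (TMM).

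Levels without treatment were compared between the lines. In one fit of all 16 libraries (edgeR quasi-likelihood F test, Benjamini-Hochberg adjusted over all genes, called at an adjusted p under 0.05), MCM3, MCM4, MCM6 and MCM7 were higher in U-937, and MCM10, CDC6 and CDT1 were lower. That is 4 of 10 higher, where 31.7% of all genes were called higher, and 3 of 10 lower, where 33.1% were called lower, so the counts lay near the shares over all genes. MCM6 differed by 1.33 ± 0.0999 on the log2 scale (± SE, adjusted p = 7.06e-10), and by 1.33 and 1.40 without SKNO-1 DMSO replicate 1 or 2. CDT1 differed by -1.31 ± 0.233 (adjusted p = 0.000223), and by -0.74 and -1.67 without these libraries in turn. MCM2, MCM5 and GMNN differed by 0.15, -0.16 and -0.14 and were not called. Without SKNO-1 DMSO replicate 1 MCM2 was called higher at 0.48, and without replicate 2 MCM5 was called lower at -0.42.

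Both agents together lowered every one of the 10 transcripts in U-937, by between 4.86-fold and 17.4-fold. MCM4, a subunit of the helicase's catalytic core, had 551 and 568 CPM in the DMSO libraries and 31.2 and 36.9 CPM with both agents. MCM6, its partner in that core, had 630.1 and 678 CPM with DMSO and 39.0 and 49.3 CPM with both. MCM7, which completes the core, had 482 and 476 CPM with DMSO and 40.7 and 45.6 CPM with both. In all 3 genes the treated libraries lay far below the controls and the 2 libraries of a group lay close together. The fold decreases were 16.4-fold for MCM4 (log2 fold change -4.04 ± 0.12 SE, adjusted p = 1.55e-18), 14.8-fold for MCM6 (-3.89 ± 0.127, adjusted p = 9.83e-18) and 11.1-fold for MCM7 (-3.47 ± 0.118, adjusted p = 1.84e-17).

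The regulatory subunits fell as well, with smaller folds in MCM3 and MCM5. MCM2, which also binds histones, had 221 and 208 CPM with DMSO and 18.6 and 20 CPM with both agents, an 11.1-fold decrease (log2 fold change -3.47 ± 0.114 SE). MCM3, which contacts the loading complex, had 461 and 468 CPM with DMSO and 61.8 and 72.9 CPM with both, a 6.91-fold decrease (-2.79 ± 0.114). MCM5, which forms with MCM2 the gate through which the ring opens, had 119 and 102 CPM with DMSO and 17.7 and 17.6 CPM with both, a 6.28-fold decrease (-2.65 ± 0.112). The adjusted p of these 3 genes lay between 1.05e-17 and 9.42e-16. The treated libraries lay below the controls in all 3, and differences in fold between subunits were not tested.

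Among the loaders, CDC6, the ATPase that recruits the rings, had 60.9 and 67.5 CPM with DMSO and 2.99 and 4.43 CPM with both agents in U-937, a 17.4-fold decrease (-4.12 ± 0.145 SE, adjusted p = 3.19e-17). CDT1, which brings the rings to the origin, had 15.8 and 10.3 CPM with DMSO and 1.01 and 0.928 CPM with both, a 13.5-fold decrease (-3.76 ± 0.22, adjusted p = 3.34e-13). The treated CDT1 values rest on 34 and 27 counts, so CDT1 had the largest SE of the 10. MCM10 had 44.3 and 50.9 CPM with DMSO and 3.40 and 4.67 CPM with both, an 11.9-fold decrease (-3.57 ± 0.139, adjusted p = 2.1e-16). GMNN, the inhibitor of CDT1, had 43.5 and 45.5 CPM with DMSO and 8.28 and 10.1 CPM with both, a 4.86-fold decrease (-2.28 ± 0.125, adjusted p = 9.47e-14). Of the 10 genes, GMNN had the smallest fold and CDC6 the largest.

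All 10 genes were called lower, where 32.2% of the 17717 genes tested in U-937 were called lower. Their median log2 fold change was -3.52, or 11.5-fold lower, against 0.03 over all genes. Ranked from the lowest log2 fold change, CDC6 was number 116, MCM4 number 127 and MCM6 number 154 of 17717, and GMNN was number 746. In bulk RNA, fewer cells of a type and less RNA per cell cannot be told apart, and no spike-in entry was in the table, so these are changes relative to the other transcripts. The 6 small non-coding RNAs took 54.4% and 55.0% of TPM with both agents and 39.5% and 41.8% with DMSO in U-937, and the part of this in the CPM values was not tested. With DESeq2's size factors in place of TMM, and with the GC trend removed, all 10 were again called lower.

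**Figure D1:**
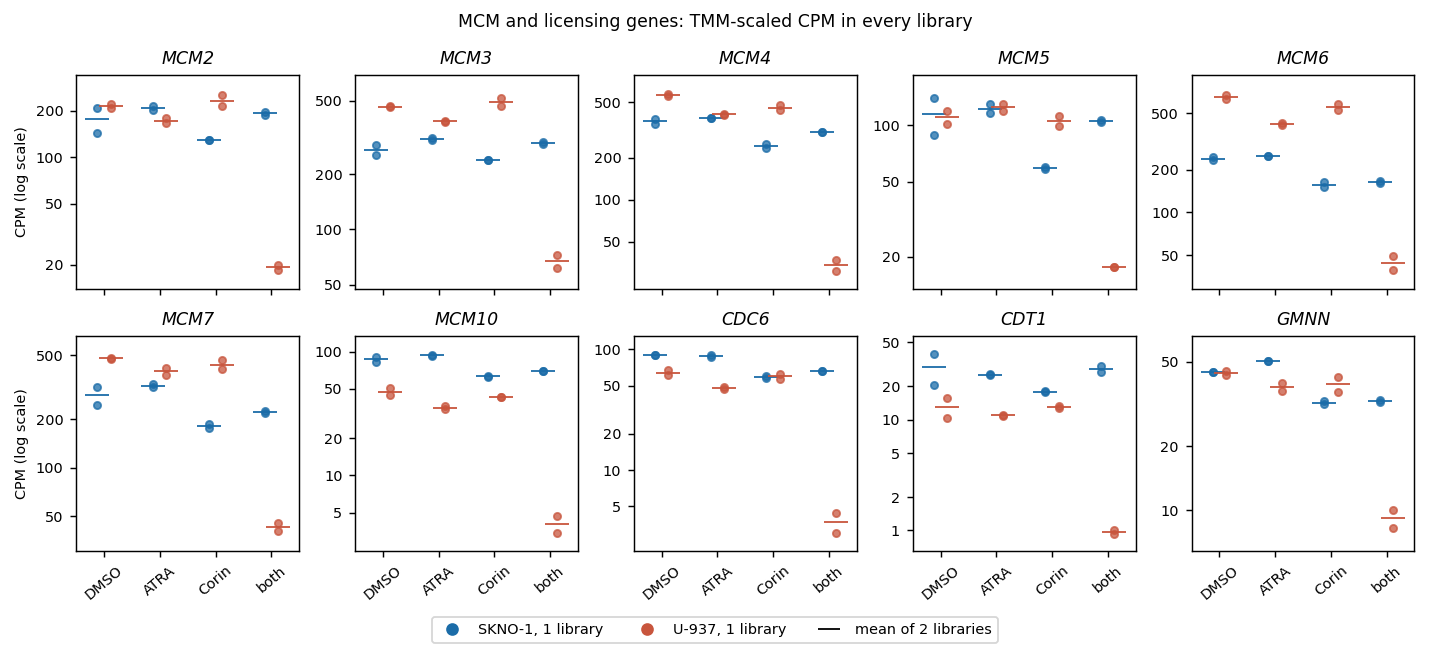
TMM-scaled CPM (log axis) of each gene in every library, by treatment, with SKNO-1 in blue, U-937 in red and a line at the mean of the 2 libraries. In all 10 panels the 2 U-937 libraries with both agents lie below all other U-937 libraries, for MCM4 at 31.2 and 36.9 CPM, while SKNO-1 spans a narrower range.

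The single agents gave smaller values in U-937: ATRA lowered 7 genes by at most 1.56-fold, and Corin gave no call. With ATRA, 7 of 10 genes were called lower (20.1% of all genes were), with a median log2 fold change of -0.29 over the 10. MCM6 had 424 and 415 CPM with ATRA, below both DMSO libraries, a log2 fold change of -0.64 ± 0.113 (adjusted p = 6.35e-05). MCM4 followed at -0.45 ± 0.105 (adjusted p = 0.00118), then MCM10 at -0.43, CDC6 at -0.43, MCM2 at -0.31, MCM7 at -0.27 and MCM3 at -0.26, the last with an adjusted p of 0.0499. MCM5, CDT1 and GMNN were not called, at 0.17, -0.25 and -0.22. The count of 7 fell to 4 without ATRA replicate 1, without DMSO replicate 1 or without DMSO replicate 2, and to 5 without ATRA replicate 2.

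With Corin alone, edgeR called 0 of the 10 genes in U-937, where 12.9% of all genes were called in either direction. Their log2 fold changes ran from -0.29 in MCM4 to 0.13 in MCM2, with a median of -0.12. MCM4 had 476 and 438 CPM with Corin, below both DMSO libraries, with an adjusted p of 0.0691. At an unadjusted p under 0.05 there were 2 genes, and DESeq2 called 1. In the authors' deposited DESeq2 table the adjusted p of MCM4 for this comparison was 0.0161. Calls also differed in SKNO-1. For CDT1 with Corin the authors' adjusted p was 0.0286, against 0.0508 by edgeR. For MCM4 with both agents it was 0.0668, against 0.0107 by edgeR.

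Against ATRA alone, both agents lowered all 10 genes in U-937 (24.8% of all genes), with log2 fold changes from -2.06 in GMNN to -3.70 in CDC6. Against Corin alone, all 10 were lower as well (30.6% of all genes), from -2.10 in GMNN to -4.02 in CDC6. The deviation from additivity, that is, the log2 fold change with both agents less the summed log2 fold changes of the single agents, was called lower for all 10 (15.3% of all genes). It was -3.59 ± 0.185 for CDC6 (adjusted p = 1.54e-12), -3.29 ± 0.154 for MCM4, -3.01 ± 0.164 for MCM6 and -1.88 ± 0.167 for GMNN (adjusted p = 7.54e-09), with a median of -3.04. On the linear scale that median is an 8.23-fold lower level than the product of the single effects. These contrasts share the combination libraries, and the additivity contrast also shares the DMSO libraries with the single effects.

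**Figure D2:**
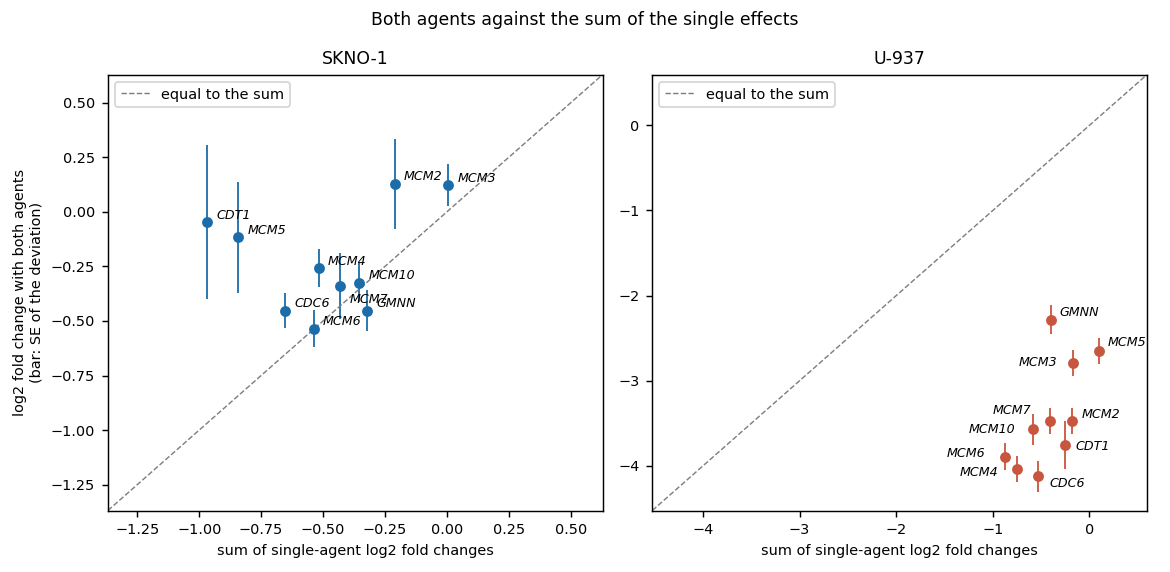
Log2 fold change with both agents (vertical, bars: SE of the deviation from additivity) against the sum of the single-agent log2 fold changes (horizontal) for each gene, in 2 panels with different scales. In U-937 all 10 genes lie below the dashed line of equality, by 1.88 (GMNN) to 3.59 (CDC6), and in SKNO-1 the genes lie on or above it apart from GMNN.

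In SKNO-1, Corin alone lowered 8 of these genes, from 1.37-fold in MCM2 to 1.93-fold in MCM5. MCM6 had 232 and 244 CPM with DMSO and 163 and 151 CPM with Corin, a log2 fold change of -0.60 ± 0.0603 (1.51-fold lower, adjusted p = 0.000233). CDC6 had 89.9 and 90.3 CPM with DMSO and 59.6 and 57.5 CPM with Corin (-0.62 ± 0.0583, 1.54-fold lower, adjusted p = 0.000165). GMNN had 44.9 and 45.0 CPM with DMSO and 32.7 and 31.6 CPM with Corin (-0.48 ± 0.0656, 1.40-fold lower). In these 3 genes the DMSO libraries lay close to each other and clearly above the Corin libraries. MCM4 (-0.59), MCM7 (-0.63), MCM10 (-0.46), MCM5 (-0.95 ± 0.181, adjusted p = 0.00487) and MCM2 (-0.46 ± 0.146, adjusted p = 0.04) were also called. The ends of that range moved with the DMSO library kept: without DMSO replicate 1 MCM5 was at -0.60 and MCM2 at -0.19, and without replicate 2 they were at -1.26 and -0.72, called in each case. MCM3, at -0.19 (adjusted p = 0.0615), and CDT1, at -0.73 ± 0.251 (adjusted p = 0.0508), were not.

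That made 8 of 10 called lower, where 17.3% of the 17479 genes tested in SKNO-1 were. For all 10, both Corin libraries lay below both DMSO libraries, as they did for 30.7% of all genes. The median log2 fold change was -0.60, or 1.51-fold lower, against 0.00 over all genes. The gap between the DMSO libraries was widest for CDT1, MCM5 and MCM2, which are GC-rich. CDT1, with 64.3% GC in its longest transcript, had 39.3 and 20.7 CPM, MCM5 (57.0% GC) had 139.7 and 88.6, and MCM2 (57.4% GC) had 209.6 and 145. CDC6 (44.8%), GMNN (43.6%), MCM6 (43.2%) and MCM10 (43.3%) had far smaller gaps. MCM7, at 57.6% GC, had a smaller gap than MCM2. Its log2 fold change with Corin was -0.47 without DMSO replicate 1 and -0.82 without replicate 2. In MCM3 (51.6% GC) these values were -0.12 and -0.29. Without DMSO replicate 1 the log2 fold change of CDT1 with Corin was -0.22, and without DMSO replicate 2 it was -1.14. All 10 genes were below DMSO without either library, and in CDC6 the values were -0.65 and -0.64.

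**Figure D3:**
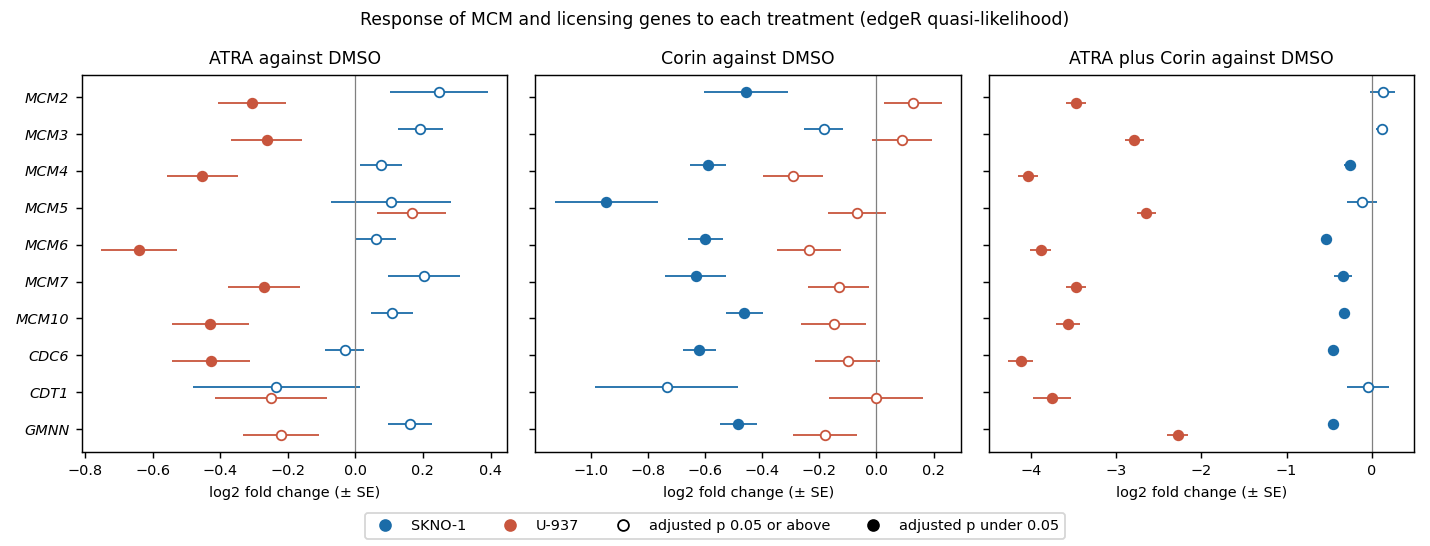
Log2 fold changes against DMSO (± SE, edgeR) of each gene with ATRA, Corin and both agents, in 3 panels with different horizontal scales, SKNO-1 in blue and U-937 in red, filled where the adjusted p was under 0.05. ATRA alone gave 7 filled points in U-937 and 0 in SKNO-1, Corin alone 8 in SKNO-1 and 0 in U-937, and both agents 10 in U-937 and 6 in SKNO-1.

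With both agents in SKNO-1, 6 of 10 genes were lower (22.0% of all genes), and these were MCM4, MCM6, MCM7, MCM10, CDC6 and GMNN. MCM6 had 167 and 162 CPM, close to its level with Corin alone, with a log2 fold change of -0.53 ± 0.0603 (1.45-fold lower, adjusted p = 0.000283). CDC6 had 65.9 and 65.8 CPM (-0.45 ± 0.0581), and GMNN had 33.2 and 32.5 CPM (-0.45 ± 0.0656). MCM7, MCM10 and MCM4 were at -0.34, -0.32 and -0.26. MCM2, MCM3, MCM5 and CDT1 were not called, at 0.13, 0.12, -0.12 and -0.05, and the median of the 10 was -0.29.

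The values of the 4 genes that were not called depended on which DMSO library was kept. Without DMSO replicate 1, MCM2 was at 0.41, MCM3 at 0.20, MCM5 at 0.23 and CDT1 at 0.47. Without DMSO replicate 2, MCM2 was at -0.12, MCM3 at 0.03, MCM5 at -0.42 and CDT1 at -0.45. MCM4, MCM6, MCM7, MCM10, CDC6 and GMNN were lower in both cases, MCM6 at -0.58 and -0.51 and MCM7 at -0.17 and -0.52. With a lone control library, that library is assumed to vary as the other groups do.

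Adding Corin to ATRA in SKNO-1 lowered 6 genes (21.8% of all genes were lower), in a comparison that uses no DMSO library. GMNN was at -0.61 ± 0.0656 (adjusted p = 0.000239), MCM6 at -0.60, MCM7 at -0.54, MCM10 at -0.43, CDC6 at -0.42 and MCM4 at -0.33. CDT1 was at 0.19 and was not called, with 27.2 and 30.7 CPM with both agents against 25.2 and 25.7 with ATRA. The count was again 6 when any 1 of the 4 libraries was left out.

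Adding ATRA to Corin in SKNO-1 gave higher values in part of the helicase. MCM5 had 60.0 and 58.4 CPM with Corin and 104 and 106 CPM with both agents, a log2 fold change of 0.83 ± 0.181 (adjusted p = 0.028). MCM2 had 129 and 129 CPM with Corin and 189.5 and 198 CPM with both (0.59 ± 0.146, adjusted p = 0.043). MCM4 and MCM3 were at 0.33 and 0.31. The libraries of the 2 groups did not overlap in these genes, nor in MCM7, MCM10, CDC6 and CDT1, making 8 of 10, where 35.0% of all genes lay higher without overlap. edgeR called MCM2, MCM3, MCM4 and MCM5 higher (4.82% of all genes). MCM6, MCM7, MCM10, CDC6, CDT1 and GMNN were not called. The count was 0 when any 1 of the 4 libraries was left out and 8 when the fit held only those 4 libraries.

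ATRA alone gave 0 calls among the 10 genes in SKNO-1 by edgeR and by DESeq2, and 2 genes at an unadjusted p under 0.05, where 6.76% of all genes were called in either direction. Log2 fold changes ran from -0.23 in CDT1 to 0.25 in MCM2, with a median of 0.11. GMNN had 50.3 and 50.3 CPM with ATRA, above both DMSO libraries, at 0.16 ± 0.0649 (adjusted p = 0.236). Without DMSO replicate 1, MCM2 was at 0.49, MCM5 at 0.43 and CDT1 at 0.25. Without DMSO replicate 2, these genes were at -0.04, -0.23 and -0.67.

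The deviation from additivity in SKNO-1 was called for 0 of 10 genes by edgeR and by DESeq2, where 0.463% of all genes were called, and 4 had an unadjusted p under 0.05. CDT1, at 0.92 ± 0.353 (adjusted p = 0.316), and MCM5, at 0.72 ± 0.253 (adjusted p = 0.287), had the largest values, and the median was 0.16. Without DMSO replicate 1, CDT1 was at 0.44 and MCM5 at 0.41, and without DMSO replicate 2 they were at 1.36 and 1.06. In the same order MCM4 was at 0.25 and 0.36 and CDC6 at 0.26 and 0.25. GMNN was at -0.08 in both fits, and MCM7 was at -0.05 without replicate 1. The gap between the 2 DMSO libraries enters the SE of the main fit, so the absence of calls does not show that the effects were additive.

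The difference between the lines was tested directly as a contrast in the fit of all 16 libraries. The effect of both agents was lower in U-937 than in SKNO-1 for all 10 genes (22.7% of all genes), from -1.78 ± 0.152 in GMNN to -3.74 ± 0.13 in MCM4 on the log2 scale (adjusted p = 1.73e-13 for MCM4). The deviation from additivity was lower in U-937 for all 10 as well (8.7% of all genes), from -1.74 ± 0.211 in GMNN to -4.41 ± 0.521 in CDT1. Both counts were 10 when any 1 library was left out.

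The single agents differed between the lines in opposite directions. The ATRA effect was lower in U-937 for MCM2, MCM3, MCM4, MCM6, MCM7 and MCM10 (6 of 10, against 8.81% of all genes), with MCM6 at -0.66 ± 0.139 (adjusted p = 0.00194). The Corin effect was higher in U-937, that is, less of a decrease, for MCM2, MCM5, MCM7 and CDC6 (4 of 10, against 5.28%), with MCM5 at 0.87 ± 0.205 (adjusted p = 0.0107). Without SKNO-1 DMSO replicate 2, MCM2 (-0.33) and MCM7 (-0.32) were not called for ATRA, while CDC6 and GMNN were. Without SKNO-1 DMSO replicate 1, MCM2 (0.29) and MCM7 (0.31) were not called for Corin. The ATRA count was 3 without SKNO-1 ATRA replicate 2 or without U-937 DMSO replicate 2. The Corin count was 0 without SKNO-1 Corin replicate 2 or without U-937 Corin replicate 1. It was 1 without SKNO-1 Corin replicate 1, U-937 DMSO replicate 1 or U-937 DMSO replicate 2, then 2 without SKNO-1 DMSO replicate 1 and 7 without SKNO-1 DMSO replicate 2. The 2 kinds of contrast share the DMSO libraries of both lines.

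Shares of the helicase transcript pool differed between DMSO and both agents in U-937. MCM4 made up 30.8% ± 0.225 (SD, n = 2) of the summed MCM2 to MCM7 TPM with DMSO and 21.3% ± 0.0622 with both agents. MCM3 went from 16.4% ± 0.389 to 25.4% ± 1.24, so that the most abundant of the 6 with both agents was MCM3 in place of MCM4. MCM6 went from 21.5% ± 0.976 to 15.4% ± 1.15 and MCM5 from 6.15% ± 0.451 to 8.64% ± 0.0735. MCM2 held 6.33% ± 0.217 and 6.22% ± 0.558. MCM7 went from 18.8% ± 0.473 to 23.1% ± 1.97, but its deposited effective length, the transcript length that TPM divides by, fell from a mean of 2373 to 1914 bases, while that of MCM5 rose from 1674 to 2095. With counts divided by 1 fixed length per gene, an alternative chosen after seeing the data, MCM7 held 19.6% and 19.8%, MCM5 went from 5.89% to 10.6%, MCM4 from 30.9% to 21.1%, MCM3 from 16.2% to 26.3% and MCM6 from 21.0% to 15.8%. The MCM7 gain was seen only with the lengths of each library, and the differences in MCM3, MCM4, MCM5 and MCM6 on both scales. With the single agents in U-937 the MCM3 share was 18.2% and 16.8% (ATRA) and 19.3% and 19.4% (Corin). In SKNO-1 the MCM4 share lay between 31.0% and 36.3% in all 8 libraries. The MCM3 share in SKNO-1 was 15.6% in both DMSO libraries and 16.5% and 16.6% with ATRA. It was 19.2% and 20.5% with Corin, and 19.5% and 19.4% with both agents. These shares are descriptions with 2 libraries a group, and no test was made.

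**Figure D4:**
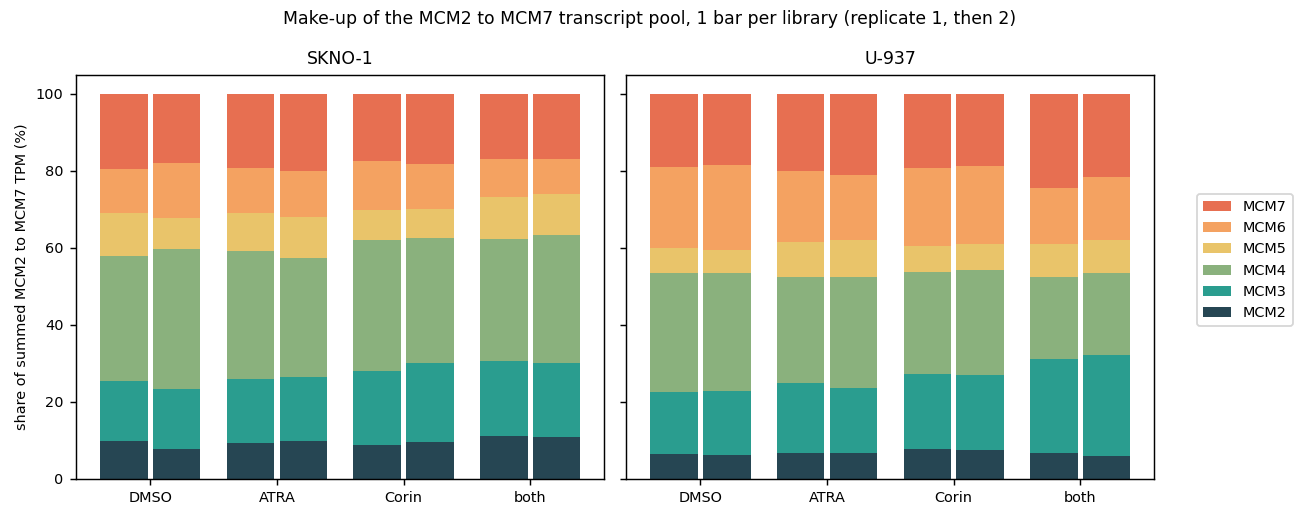
Share (%) of each subunit in the summed MCM2 to MCM7 TPM, 1 stacked bar per library, by treatment, for SKNO-1 and U-937. In the 2 U-937 libraries with both agents the MCM4 share is 21.2% and 21.3%, against 31.0% and 30.6% with DMSO, and the MCM3 share is 24.5% and 26.3%, against 16.1% and 16.7%.

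The ratio of the inhibitor to its target also differed between groups. GMNN over CDT1, in TPM, was 7.18 and 11.7 in the U-937 DMSO libraries, 8.71 and 9.30 with ATRA, 8.25 and 7.14 with Corin, and 20.7 and 30.3 with both agents. The 2 combination libraries lay above the other 6, and their CDT1 values rest on 34 and 27 counts. In SKNO-1 the ratio was 2.96 and 6.01 with DMSO, 5.58 and 5.19 with ATRA, 5.01 and 4.89 with Corin, and 3.27 and 2.69 with both. There the DMSO libraries spanned the values of the other groups apart from one combination library, so no difference from DMSO was larger than the spread between libraries.

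Other genes of the replication pathway fell with the 10 licensing genes in U-937 with both agents, and 32.2% of all genes were lower and 33.1% higher there. All 12 genes of origin firing and CMG assembly were lower (median -2.42), with the GINS subunit GINS2 at -4.71 and CDC45, the helicase cofactor, at -4.23 ± 0.161. CDC45 had 39.8 and 38.6 CPM with DMSO and 1.60 and 2.65 CPM with both. Of the origin recognition complex, 5 of 6 were lower (median -1.15), with ORC1, the subunit that varies over the cycle, at -3.72 ± 0.13. Of the other MCM family genes and the MCM chaperone, 2 of 3 were lower, with MCM8, a helicase of recombination, at -2.82. All 18 further G1/S genes were lower (median -2.63), with the phosphatase CDC25A at -3.92 and the sliding clamp PCNA at -2.61 ± 0.119. All 15 G2/M genes were lower too (median -1.56), with the proliferation antigen MKI67 at -2.11 ± 0.12, the lowest of them.

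Most of the tested regulators of the pathway were lower in U-937 with both agents as well. Of 8 tested genes that control CDT1, CDC6 and geminin, 7 were lower in U-937 with both agents (median -1.23). MCIDAS, a geminin-related regulator, was the lowest, with 58 and 52 counts with DMSO and 2 and 0 with both agents, a ratio of 56.3 (95% interval 15.2 to 471, counting error only). Of 18 tested E2F and RB/DREAM genes, 14 were lower and 1 higher (median -1.11). E2F5 was at -4.53, the activator E2F1 at -2.84 ± 0.134, and E2F2 was higher at 1.04. With ATRA alone in U-937, E2F2 was higher at 1.63 and E2F5 lower at -2.80, and in the 18 genes 3 were lower and 4 higher, near the 20.1% lower and 21.7% higher over all genes. The origin firing list had 5 of 12 lower with ATRA (GINS2 at -0.53) and 2 of 12 lower with Corin (CDC7, the kinase that activates the rings, at -0.53), where 4.4% of all genes were lower with Corin. ORC6 was higher with ATRA at 0.95 and ORC5 lower at -0.60. The G2/M list had 0 genes lower and 2 higher with ATRA, TOP2A at 0.34 and MKI67 at 0.28 ± 0.114.

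In SKNO-1, where 17.3% of all genes were lower and 20.5% higher with Corin, Corin alone lowered 10 of 12 origin firing genes (median -0.50, RECQL4 at -0.92, CDC45 at -0.82 ± 0.0932), 4 of 6 origin recognition genes (ORC1 at -0.66 ± 0.0734) and 12 of 18 G1/S genes (median -0.37, UNG at -0.98, PCNA at -0.38 ± 0.0515). The E2F and RB/DREAM list had 9 of 18 lower, with LIN9 at -0.82 and E2F1 at -0.53 ± 0.173. The turnover list had 5 of 8 lower, with SKP2, a ubiquitin ligase subunit that acts on CDT1, at -0.76. Of 15 G2/M genes, 6 were lower, with CCNA2 at -0.56, and TOP2A was higher at 0.21, while MKI67 at -0.26 was not called. With both agents, where 22.0% of all genes were lower and 24.7% higher, the counts lower were 9 of 12 (DBF4 at -0.81), 3 of 6, 12 of 18 (CCNE1 at -0.89), 10 of 18 (LIN9 at -1.0), 5 of 8 (SKP2 at -0.80) and 9 of 15 (CCNB1 at -0.78), in the same order of lists, and AURKB was higher at 0.41. With ATRA alone TFDP2, at -0.40, was the only called gene of these lists.

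These list values also moved with the SKNO-1 DMSO library kept. With Corin, the G2/M count lower was 10 without DMSO replicate 1 and 8 without replicate 2, the E2F and RB/DREAM count was 13 and 12, and the origin firing count was 11 and 11, where 24.9% and 27.7% of all genes were lower. RECQL4 with Corin was at -0.31 and -1.38 and E2F1 at -0.22 and -0.82, in the same order. MKI67 with Corin was called at -0.48 without replicate 1 and was not called at -0.05 without replicate 2. With both agents RECQL4 changed direction, at 0.66 and -0.41, and E2F1 as well, at 0.32 and -0.28, each called. AURKB with both agents was called at 0.60 without replicate 1 and was not called at 0.21 without replicate 2. With ATRA, the genes called in these lists also depended on the DMSO library kept. Most calls were in the E2F and RB/DREAM list and the G2/M list without replicate 1, and they went in both directions. GMNC in both lines, E2F5 in SKNO-1 and E2F7 in U-937 did not pass the filter on low counts.

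**Figure D5:**
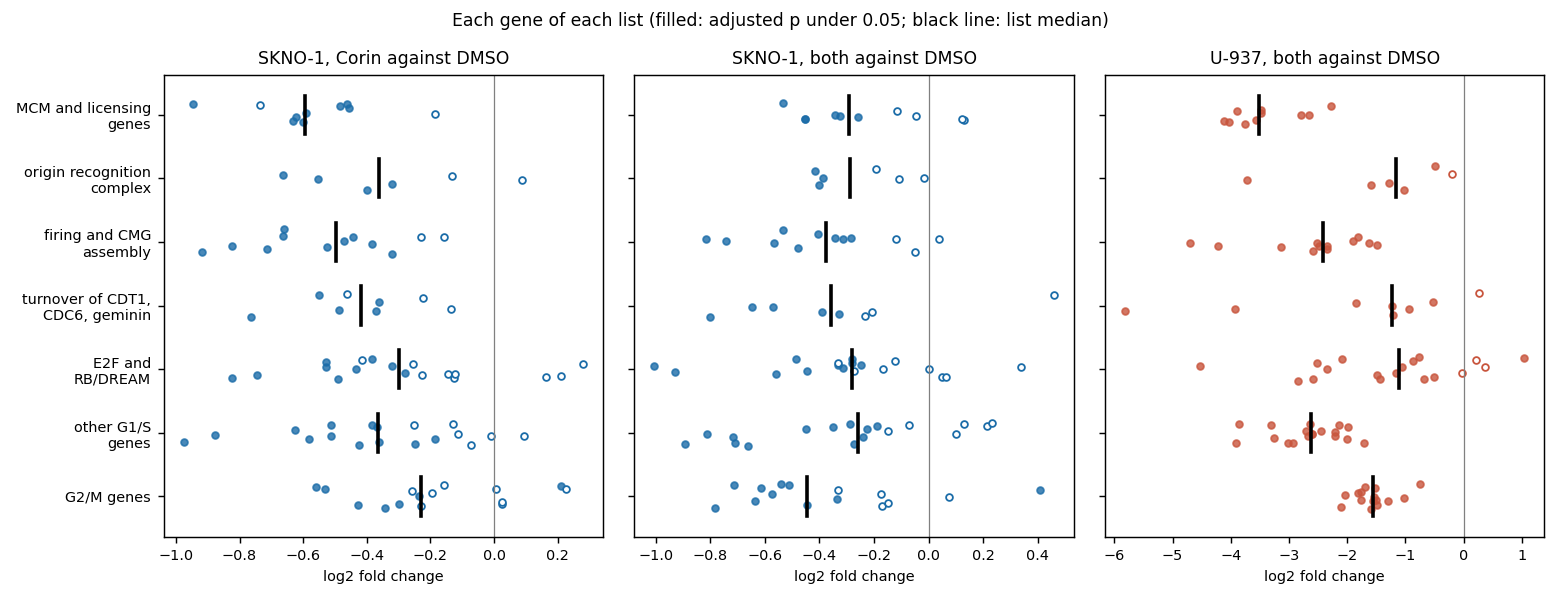
Log2 fold change of every tested gene in 7 lists (1 point per gene, filled where the adjusted p was under 0.05, black bar at the list median) for Corin in SKNO-1, both agents in SKNO-1 and both agents in U-937, with different horizontal scales. The medians of the MCM and licensing genes are -0.60, -0.29 and -3.52, and those of the G2/M genes are -0.23, -0.44 and -1.56.

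The genes whose pattern over the 16 libraries was most like the mean of the 10 were EME1, CDCA5, CHAF1B, CDC45 and FANCG, among 8898 protein-coding genes. Pearson r, with each line centred on its own mean, was 0.998 for EME1, a resolvase subunit, 0.997 for CDCA5, a cohesin regulator, and 0.996 for CHAF1B, a histone chaperone subunit, for CDC45 and for FANCG. The 10 genes themselves had r between 0.969 (MCM5) and 0.999 (MCM4) with their mean. All points share the same libraries, and the 2 U-937 libraries with both agents lie far from the rest, so r mainly records that fall. Without the 2 SKNO-1 DMSO libraries, 3 of the 5 remained among the first 5.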

How the data were processed

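Total RNA was measured in 16 libraries. Per the labels' protocols, RNA was DNase-treated, a stranded total RNA kit was used and an ERCC spike-in was added, of which the table holds 0 entries. The authors deposited estimated counts and TPM per gene from RSEM, and the submitters' processing notes also name Trimmomatic, STAR, DESeq2 and hg38. Use of strand in counting and the annotation release are not given in the sources used here. The authors also deposited tables with log2 fold changes and adjusted p-values, used here only for the adjusted p-values credited to the authors above. Of the positive counts 20.4% were not whole. Counts were rounded, genes kept by filterByExpr (17479 in SKNO-1, 17717 in U-937, 19872 in both), scaled by TMM and fitted with edgeR 4.0.16 (R 4.3.3) by robust quasi-likelihood on the 8 libraries of a line or all 16, with no replicate block. Benjamini-Hochberg adjustment ran over all genes tested, and a call is an adjusted p under 0.05. Each SE is the absolute fold change (log2) over the square root of the F statistic. With 2 libraries a group, precision rests on spread shared across genes (biological coefficient of variation 0.107 in SKNO-1 and 0.0945 in U-937). The procedure was tested on simulated data. Alternatives were DESeq2 1.42.0 and its size factors, no count filter, a GC correction, a replicate block, each library left out, and only the 4 libraries compared. The genes, lists and naming rule (all 10 members, the lowest and highest called gene of each other list, E2F1, ORC1, CDC45, PCNA and MKI67, and the 5 genes most like the mean) were chosen with earlier results of these data known.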

Additional observations from a re-analysis of the deposited data

Results flagged for a closer look

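The effects that differed between U-937 and SKNO-1 in the contrasts of the fit of all 16 libraries are collected here, as U-937 minus SKNO-1 on the log2 scale, with no explanation weighed. The lines also differed in medium. For the effect of both agents the difference was -3.56 in MCM2, -2.87 in MCM3, -3.74 in MCM4, -2.49 in MCM5, -3.31 in MCM6, -3.09 in MCM7, -3.20 in MCM10, -3.63 in CDC6, -3.67 in CDT1 and -1.78 in GMNN. Every one of these 10 was lower in U-937, and GMNN differed least.

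For the deviation from additivity it was -3.63 in MCM2, -2.73 in MCM3, -3.54 in MCM4, -3.46 in MCM5, -3.01 in MCM6, -3.15 in MCM7, -3.02 in MCM10, -3.79 in CDC6, -4.41 in CDT1 and -1.74 in GMNN. Of the 10 genes, CDT1 and MCM5 had the widest range over the fits with 1 library left out. CDT1 was at -3.84 without SKNO-1 DMSO replicate 1 and at -4.78 without SKNO-1 DMSO replicate 2.

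For ATRA alone the difference was -0.52 in MCM2, -0.42 in MCM3, -0.49 in MCM4, -0.66 in MCM6, -0.44 in MCM7 and -0.50 in MCM10. For Corin alone it was 0.58 in MCM2, 0.87 in MCM5, 0.50 in MCM7 and 0.52 in CDC6. Without SKNO-1 DMSO replicate 1 the Corin differences of MCM2 (0.29) and MCM7 (0.31) were no longer called, and without replicate 2 the ATRA differences of MCM2 (-0.33) and MCM7 (-0.32) were not.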

How the results depend on the processing

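In U-937, all 10 genes were called lower with both agents against DMSO, ATRA or Corin, and for the deviation from additivity, under every alternative run, and the contrasts of these 2 effects between lines also held 10 throughout. Other counts moved. Shares over all genes are not given for these and the following alternatives, so the counts describe the members alone. With the GC trend removed, ATRA in SKNO-1 went from 0 to 4 genes (1 lower, 3 higher) and both agents against Corin from 4 to 7, all higher. Additivity in SKNO-1 went from 0 to 3, all higher, and Corin in U-937 from 0 to 1 lower, which DESeq2 also gave. Without the low-count filter additivity in SKNO-1 gave 3 higher. With only the 4 libraries compared, both agents against Corin in SKNO-1 gave 8 higher. The replicate numbers did not pair the samples (correlations of deviations from -0.49 to 0.24 in SKNO-1 and from -0.45 to 0.42 in U-937). A replicate block gave 2 higher for both agents against Corin in SKNO-1. It gave 3 lower for the ATRA difference between lines and 2 higher for the Corin difference. With the GC trend removed as well, it gave 3 higher for ATRA in SKNO-1 and 7 higher for both agents against Corin. That fit also gave 1 higher for additivity in SKNO-1 and 1 lower for Corin in U-937. The cause was not tested.

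With 1 library left out in turn, the counts called moved for ATRA, Corin, both agents, both against Corin and additivity in SKNO-1. They also moved for ATRA in U-937 and for the ATRA and Corin differences between lines. Such counts pool both directions and rest on a lone library in 1 group, so values of single genes are given instead. With both agents in SKNO-1 without DMSO replicate 1, the genes went in both directions, with MCM6 at -0.58 and MCM3 at 0.20. Among the 10 genes, directions reversed with called values in 5 cases, each without 1 SKNO-1 DMSO library. With ATRA, MCM5 was at 0.43 without replicate 1 and -0.23 without replicate 2, and CDT1 at 0.25 and -0.67. With both agents, MCM2 was at 0.41 without replicate 1 and -0.12 without replicate 2, MCM5 at 0.23 and -0.42, and CDT1 at 0.47 and -0.45. Of the 5 genes most like the mean, 3 remained without the SKNO-1 DMSO libraries. Medians over MCM2 to MCM7 alone and over the other 4 genes, an alternative chosen after seeing the data, were -3.47 and -3.66 for both agents in U-937. The 34 and 27 counts of CDT1 in the U-937 combination libraries limit its precision.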
